A study of Mus musculus with 4 samples.

Results

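The genes described here encode the protein components of the cytosolic ribosome of the mouse heart. They were chosen by name alone: every row of the read table named Rpl or Rps followed by a number and at most 1 of the letters a, l, x or y, together with Rplp0, Rplp1, Rplp2 and Rpsa, leaving out the Rps6k kinases. In total 77 of the 29595 rows met this rule. They are 30 genes of the small (40S) subunit, 42 genes of the large (60S) subunit, 2 genes of the stalk, and 3 paralogs (Rpl3l, Rpl39l and Rps27l) that duplicate another member. Rplp0 and Rpl10l are not analysed here, and 3 rows named Rpl29 with a chromosome attached fell outside the rule.

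The tissue was the heart's right ventricle, taken from 4 adult animals on a mixed background of C57BL/6. The groups were 2 Ezh2-deficient hearts (labelled mutant 1 and mutant 3) and 2 wild-type hearts (labelled wild type 1 and wild type 2). Ezh2 is the enzyme of Polycomb repressive complex 2 that methylates histone H3 and represses genes. The labels do not say which part of Ezh2 was removed, in which cell type or with which Cre, and they name no treatment. Polyadenylated RNA was made into libraries, which a duplex-specific nuclease then depleted of DNA that had re-annealed, so abundant transcripts such as these give fewer reads than their share of the RNA.

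Ribosomal proteins surround the ribosomal RNA and are needed in equal amounts, since each ribosome holds a single copy of nearly all of them. Their messages begin with a run of pyrimidines, the terminal oligopyrimidine (TOP) stretch, through which the kinase mTORC1 adjusts their translation together. In striated muscle Rpl3l takes the place of Rpl3 in a part of the ribosomes, whereas most other members are made in every cell.

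The libraries held between 18177642 and 23853394 reads, of which 34.7% to 47.3% lay in mitochondrially encoded rows. The Ezh2 row had 73 and 70 reads in mutants 1 and 3, against 77 and 67 reads in wild types 1 and 2. Because the deleted part is unknown, the whole-gene count does not check the labels. Reads of the Y-linked gene Ddx3y were 754 and 659 in the mutants and 2 in each wild type. Xist, the RNA of the inactive X chromosome, was read 64 and 17 times in the mutants, against 638 and 3227 times in the wild types. Genotype and sex therefore cannot be told apart in any comparison of the groups. The summed level of 8 cardiomyocyte markers lay between 33864 and 36365 CPM (reads scaled to 1000000 per library) in the 4 libraries, and none of the 8 was at 0. Summed levels of 3 atrial markers were 140.5 and 112.8 CPM in the mutants and 55.3 and 5.48 CPM in the wild types, those of 4 red cell markers 2272 and 3360 against 1936 and 1448 CPM, and those of 4 fast skeletal muscle markers 179.4 CPM in mutant 1 and 2.97 to 3.25 CPM elsewhere. Summed smooth muscle markers were lower in both mutants (103.6 and 105.0 against 167.4 and 120.3 CPM, 4 genes). Taken singly, both mutants lay above both wild types for 2 of these 4 genes and below them for 1. Summed adipocyte markers were higher in both mutants (4.15 and 3.65 against 2.27 and 0.15 CPM, 3 genes, of which 1 was at 0 in every library). The part of these marker differences in the results was not tested. In bulk RNA, fewer cells of a type and less RNA per cell cannot be told apart.

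Most ribosomal protein genes had a fold change above 0 in the Ezh2-deficient ventricles, and none of them passed the test. All 77 had enough reads to be tested. The median log2 fold change (mutant over wild type) was 0.23, against 0.00 over all tested rows, with quartiles of 0.00 and 0.57. The fold change was above 0 for 58 of 77 genes, against 50.5% of all rows. It was 35 of 77 when libraries were scaled by their total reads, a scaling that moved the median of all rows to -0.28 and that of the members to -0.06. It was 36 of 77 after a correction for GC content and coding length that was added once the data had been seen (members' median -0.06), and 44 of 77 without wild type 2 (members' median 0.08). With edgeR's quasi-likelihood test and Benjamini-Hochberg adjustment over all rows, 0 of 77 were called at an adjusted p under 0.05, against 0.13% of all rows. The smallest adjusted p was 0.138 (Rps20, edgeR). At an unadjusted p under 0.05, 20 members were higher in the mutants, against 6.49% of all rows, and 1 was lower (Rpl3l), against 4.38%. DESeq2, used as an alternative, called Rplp1, Rps20, Rps27l and Rps29, all higher, against 1.18% of all rows, and limma-voom called 0. Nothing in the labels says more of the samples than that they are different hearts, so p-values measure the spread between these hearts.

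Counted without a model, both mutants lay above both wild types for 38 of 77 members, against 22.3% of all rows. For 5 members both mutants lay below both wild types (Rpl3l, Rps2, Rpl6, Rpl24 and Rpl34), against 22.4% of all rows. The groups overlapped for the other 34. Of the 38, 18 were among the 30 small-subunit genes and 18 among the 42 large-subunit genes. The median log2 fold change was 0.34 in the small subunit and 0.18 in the large subunit; this difference was not tested.

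**Figure D1:**
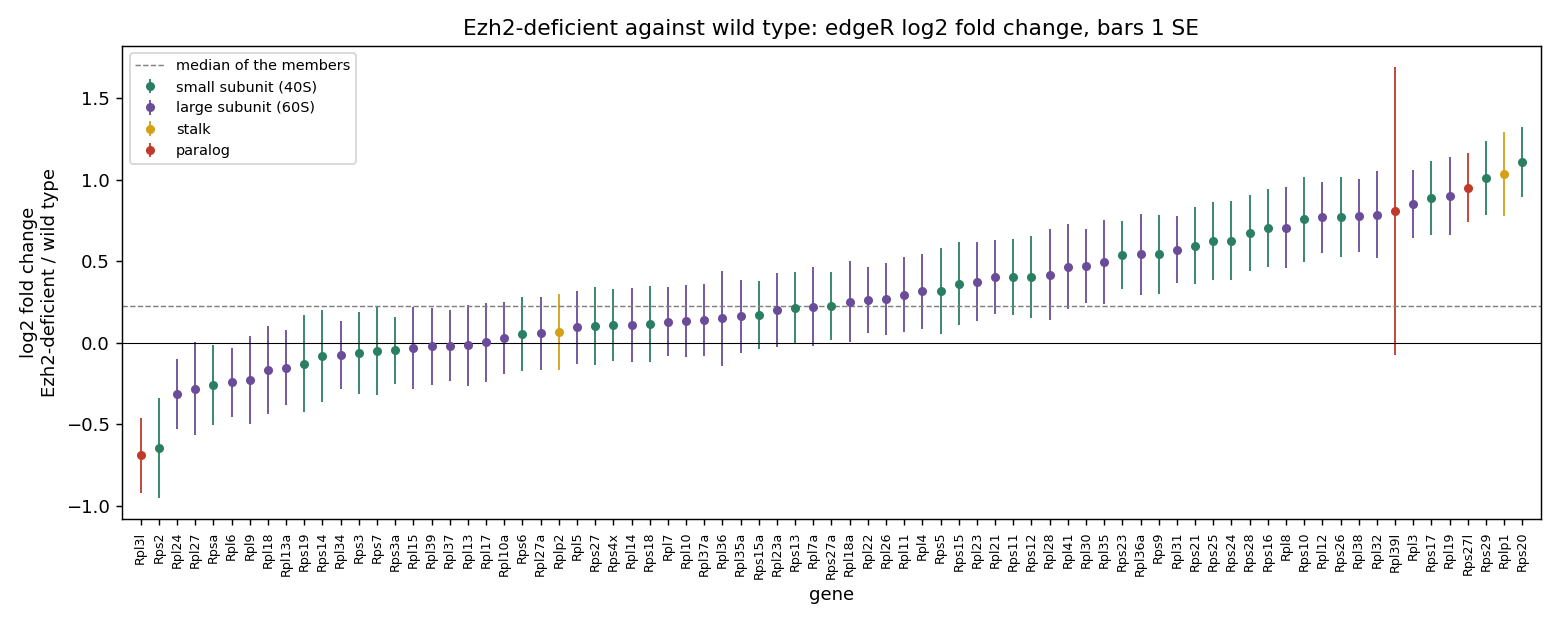
Log2 fold change (edgeR, Ezh2-deficient over wild type) of each of the 77 genes, ordered from lowest to highest, with bars of 1 SE and colours for subunit; the dashed line is their median, 0.23. Most genes lie above 0 with overlapping bars, Rpl3l and Rps2 stand lowest, Rps20 and Rplp1 highest, and with total-count scaling, or with a GC and length correction, the median falls to -0.06. The median of all rows is then -0.28 with total-count scaling and -0.065 with the correction.

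Among the small-subunit genes, Rps20, a protein of the 40S head, had the highest fold change. Its row (mm9, chr4:3761620-3762747, minus strand) held 194.8 CPM in mutant 1 and 181.7 CPM in mutant 3, against 94.2 CPM in wild type 1 and 80.0 CPM in wild type 2. The mutants lay well above the wild types, and the hearts of each genotype were close together. The log2 fold change was 1.11 ± 0.21 (SE, n = 2 per group, edgeR adjusted p 0.138). Rps29, a zinc-binding protein of the 40S head, measured 281.4 and 288.3 CPM in the mutants and 157.1 and 125.6 CPM in the wild types. Its groups did not overlap either, and its log2 fold change was 1.01 ± 0.22 (SE, n = 2 per group, edgeR adjusted p 0.175).

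Rps24, which is mutated in some families with Diamond-Blackfan anaemia, was found at 58.4 and 74.3 CPM in the mutants and 36.6 and 49.4 CPM in the wild types. Rps28, which lies near the mRNA exit channel, was found at 175.7 and 149.1 CPM against 114.8 and 88.8 CPM. Both were higher in each mutant than in either wild type, although the 2 hearts of a genotype differed from each other. Neither passed the test (edgeR adjusted p 0.413 and 0.357), and their log2 fold changes of 0.63 and 0.67 were 0.22 and 0.25 after the GC and length correction.

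Some small-subunit genes with special roles had smaller fold changes. Rps6, the protein phosphorylated by the S6 kinases, had 51.6 and 61.3 CPM in the mutants and 61.0 and 47.8 CPM in the wild types. Rps27a, made as a fusion with ubiquitin, had 22.9 and 24.1 CPM against 20.1 and 20.1 CPM. Rps4x, encoded on the X chromosome, had 51.2 and 53.1 CPM against 54.7 and 42.3 CPM. Rps6 and Rps4x overlapped between the groups, while Rps27a was slightly higher in both mutants. Their log2 fold changes were 0.05 ± 0.23, 0.23 ± 0.21 and 0.11 ± 0.22 (SE, n = 2 per group), and all 3 were below 0 with total-count scaling and with the GC and length correction. With total-count scaling they lay above the median of all rows (-0.28), and with the correction below it (-0.065).

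At the other end stood Rps2, a protein of the mRNA entry channel, with 119.4 and 129.4 CPM in the mutants and 253.0 and 135.7 CPM in the wild types. Wild type 1 stood far above the other 3 hearts, which lay close together. The log2 fold change of -0.64 ± 0.31 (SE, n = 2 per group, edgeR adjusted p 0.502) became -0.12 without wild type 1. Rpsa, the laminin receptor protein of the 40S subunit, was likewise highest in wild type 1, at 76.1 CPM, against 51.7 CPM in wild type 2 and 51.3 and 55.3 CPM in the mutants. Rps3, Rps14 and Rps19, the gene most often mutated in Diamond-Blackfan anaemia, followed the same order of the wild types. For Rps19 the values were 17.97 and 15.2 CPM in the mutants and 23.1 and 13.2 CPM in the wild types. In these 3 genes the mutants lay between the wild types.

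In the large subunit, Rpl19 had the highest fold change. It measured 97.4 and 118.0 CPM in the mutants and 66.1 and 49.2 CPM in the wild types, so that both mutants were above both wild types. Its log2 fold change was 0.90 ± 0.24 (SE, n = 2 per group, edgeR adjusted p 0.252). Rpl8, among the members with the most reads, gave 365.4 and 404.2 CPM against 275.5 and 196.3 CPM. Its groups were separate as well, with a log2 fold change of 0.71 ± 0.25 (SE, edgeR adjusted p 0.368). Rpl41, the smallest ribosomal protein, had 212.6 and 273.4 CPM in the mutants, against 207.2 and 144.7 CPM in the wild types. Mutant 1 and wild type 1 were nearly level for Rpl41, so the groups were barely separate.

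Rpl24, at the interface of the subunits, was the lowest of the large-subunit genes, with 30.3 and 33.5 CPM in the mutants and 43.5 and 35.9 CPM in the wild types. The groups were separate by a small margin (log2 fold change -0.31 ± 0.22, SE, edgeR adjusted p 0.639). Rpl27 had 21.3 and 19.9 CPM in the mutants and 31.4 and 18.6 CPM in the wild types, so the mutants lay between the wild types. Rpl5, which binds the smallest ribosomal RNA and the p53 regulator Mdm2, had 44.4 and 51.8 CPM against 40.2 and 49.96 CPM, which overlap. Rpl22, an RNA-binding protein, had 123.3 and 124.4 CPM against 108.0 and 98.3 CPM, a small separation with a log2 fold change of 0.26 ± 0.20 (SE, edgeR adjusted p 0.675).

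Of the 3 large-subunit genes on the X chromosome, Rpl10, needed for joining of the subunits, had 71.5 and 86.6 CPM in the mutants and 78.7 and 65.5 CPM in the wild types. Rpl39, a protein of the exit tunnel, had 25.8 and 26.3 CPM against 30.4 and 22.4 CPM. In both genes the groups overlapped. Rpl36a was higher in each mutant, at 17.7 and 22.7 CPM against 15.5 and 12.1 CPM, with a log2 fold change of 0.54 ± 0.25 (SE, edgeR adjusted p 0.481). Over the 4 X-linked members, Rps4x included, the median log2 fold change was 0.12.

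The acidic stalk recruits the elongation factors to the ribosome. Rplp1 (mm9, chr9:61761090-61762317, minus strand) had the most reads of all members, between 8301 and 21087 per library. It measured 984.0 and 1035 CPM in the mutants and 569.2 and 417.6 CPM in the wild types, with both mutants far above both wild types. The log2 fold change was 1.03 ± 0.26 (SE, n = 2 per group, edgeR adjusted p 0.230). Its partner Rplp2, which sits in the stalk beside Rplp1, had 139.1 and 132.2 CPM in the mutants and 150.7 and 108.4 CPM in the wild types. The groups of Rplp2 overlapped, and its log2 fold change was 0.07 ± 0.24 (SE, edgeR adjusted p 0.941). Per kilobase of the coding sequence chosen in GENCODE vM21 (342 bases), Rplp1 had the highest mean of the 77 genes. It reached 2877 and 3028 CPM per kb in the mutants and 1665 and 1221 CPM per kb in the wild types. Rpl41 came next, with a chosen coding sequence of 138 bases. The order of these genes rests on the chosen lengths, which were not checked. Rplp2 reached 403.2 and 383.0 CPM per kb in the mutants and 436.8 and 314.1 CPM per kb in the wild types. Such levels are distorted by the nuclease step and by reads in untranslated parts, which the coding length leaves out.

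**Figure D2:**
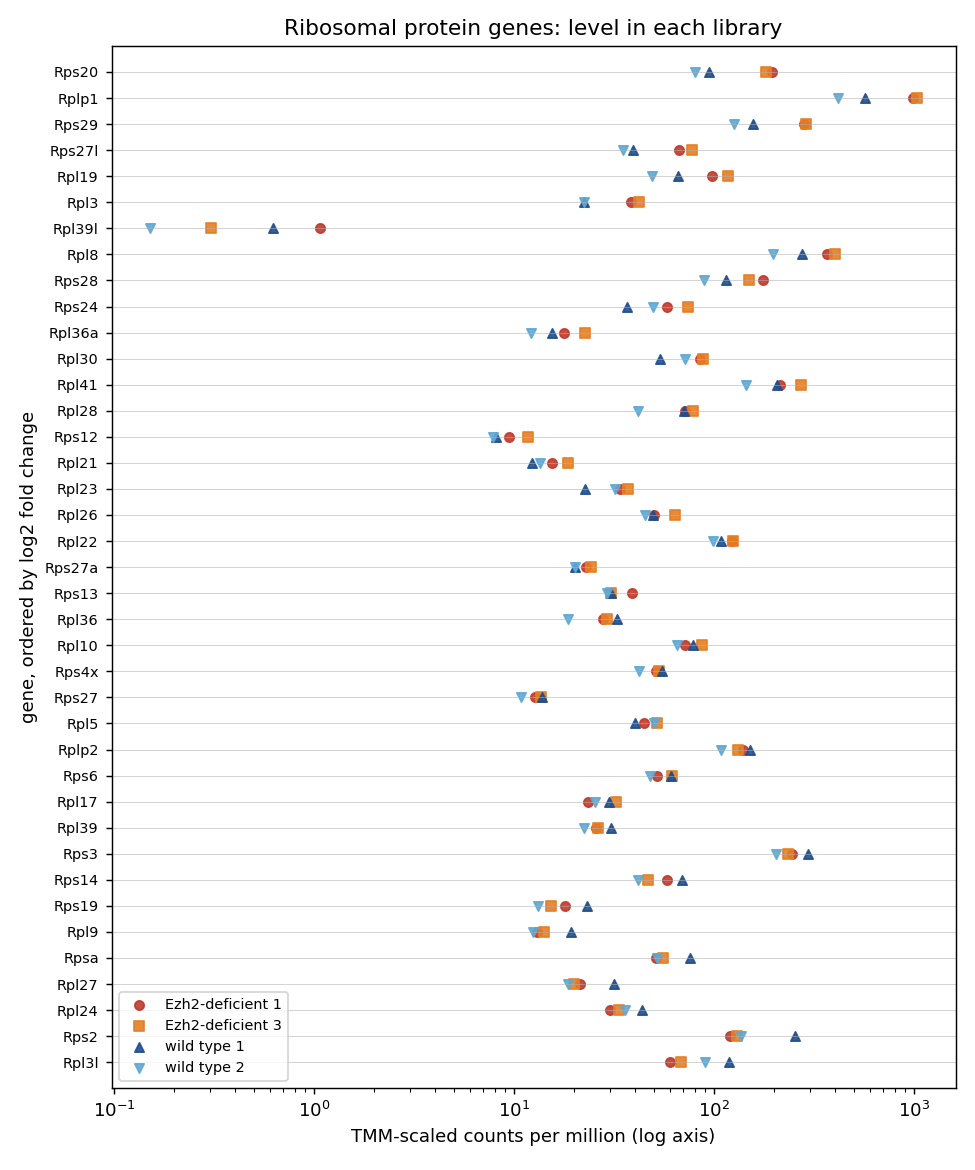
TMM-scaled CPM (log axis) of 39 members in each library; rows are ordered by the edgeR log2 fold change, and the 4 symbols are the 2 Ezh2-deficient and the 2 wild-type hearts. At the top the mutant symbols lie right of the wild-type symbols (Rps20, Rplp1, Rps29), and at the bottom left of them (Rpl3l, Rps2).

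Of the 5 pairs of a member and its paralog that were compared, Rpl3l and Rpl3 differed most between the genotypes. Rpl3 lies near the peptidyl transferase centre, and Rpl3l is its counterpart in heart and skeletal muscle; the encoded proteins have 403 and 407 residues and are identical at 310 of 402 aligned positions (77.1%). The Rpl3 row (mm9, chr15:79908225-79913765, minus strand) held 38.5 and 41.9 CPM in the mutants and 22.3 and 22.3 CPM in the wild types. For Rpl3 the hearts of a genotype were nearly equal and the mutants were higher, with a log2 fold change of 0.85 ± 0.21 (SE, n = 2 per group, edgeR adjusted p 0.225). The Rpl3l row (mm9, chr17:24867949-24873090, plus strand) held 60.5 and 68.7 CPM in the mutants and 118.7 and 89.7 CPM in the wild types. Here both mutants were lower, with a log2 fold change of -0.69 ± 0.23 (SE, n = 2 per group, edgeR adjusted p 0.348).

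Within a library, Rpl3l had 1296 reads to 825 reads of Rpl3 in mutant 1, a ratio of 1.57 (95% exact interval 1.44 to 1.72). In mutant 3 the ratio was 1.64 (1.502 to 1.79), from 1354 and 826 reads. In wild type 1 it was 5.33 (4.84 to 5.88), from 2666 and 500 reads, and in wild type 2 it was 4.01 (3.62 to 4.46), from 1782 and 444 reads. The wild-type ratios were 2.88-fold higher, a log2 difference of -1.53 (mutant minus wild type) that needs no scaling between libraries. The difference was larger than the spread of either pair (SD 0.04 and 0.29 on the log2 scale). An exact two-sided permutation test gave p = 0.333, the smallest that 2 against 2 allows (0.500 adjusted over 6 pairs). The intervals cover counting error only, and PCR copies are not independent molecules.

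Rps27l, which differs from Rps27 at few residues (96.4% identity over 84 residues), was among the members with the highest fold change. It had 67.1 and 77.2 CPM in the mutants and 39.4 and 35.2 CPM in the wild types, with the groups well apart and a log2 fold change of 0.95 ± 0.21 (SE, n = 2 per group, edgeR adjusted p 0.175). Rps27 itself had 12.8 and 13.7 CPM against 13.8 and 10.8 CPM, and its groups overlapped. The read ratio of Rps27l to Rps27 was 5.24 and 5.64 in the mutants, against 2.85 and 3.27 in the wild types (exact permutation p = 0.333). Both mutant ratios exceeded both wild-type ratios. The ratio of Rpl36al, a copy outside the name rule whose protein is identical to that of Rpl36a, to Rpl36a was 4.24 and 3.93 in the mutants, against 3.85 and 3.91 in the wild types. That pair kept almost the same ratio in every heart. Its mutant ratios still lay just above both wild-type ratios, so the exact permutation test gave the same p = 0.333.

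Rpl39l was near the limit of detection, with 23 reads in mutant 1, 6 in mutant 3, 14 in wild type 1 and 3 in wild type 2. Its ratio to Rpl39 ran from 0.0067 (0.0014 to 0.020) in wild type 2 to 0.042 (0.026 to 0.063) in mutant 1. A difference between the genotypes was not detectable at this depth. Rpl22l1, the lower of the Rpl22 pair, had a ratio to Rpl22 of 0.095 and 0.061 in the mutants, against 0.089 and 0.11 in the wild types, which overlap. For a further pair of the translation machinery with a muscle form, Eef1a2 to Eef1a1, the read ratio was 1.86 and 1.45 in the mutants, against 2.53 and 2.13 in the wild types, again separate (exact permutation p = 0.333).

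**Figure D3:**
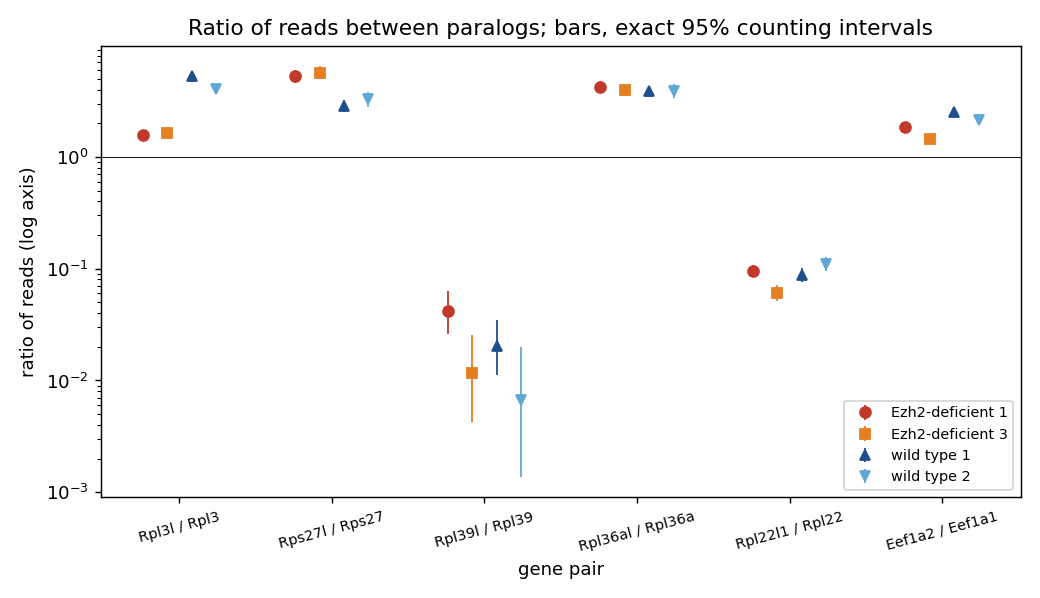
Ratio of the reads of 6 gene pairs in each library (log axis), with exact 95% counting intervals as bars. Rpl3l to Rpl3 is 1.57 and 1.64 in the Ezh2-deficient hearts and 5.33 and 4.01 in the wild types, Rps27l to Rps27 lies the other way, and Rpl36al to Rpl36a stays near 4 in every heart.

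Depth and near-identical copies limit these counts. Reads per member and library ran from 3 (Rpl39l) to 21087 (Rplp1), and after Rpl39l the members with the fewest reads were Rps12, Rps27, Rpl9 and Rpl21, with 156 to 433 reads. Ribosomal protein genes have many processed pseudogenes in the mouse genome, and the way in which reads matching several copies were assigned was not given in the sources used here. Reads of Rps27 and Rps27l, of Rpl39 and Rpl39l, and of Rpl36a and Rpl36al may be exchanged. In addition, 13 members share bases with 15 other rows, and use of strand is not stated. Of these, Rpl35 shares 3551 bases with Wdr38 on the opposite strand, and Rpl31 shares 3448 bases with the row M75 on its own strand. Such reads cannot be told apart, and the Wdr38 row held 1136 and 1266 reads in the mutants, against 1108 and 629 in the wild types.

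Start-site sequence is a feature the name rule did not use. RefSeq promoter windows (GRCm38.p6, 250 bases before to 50 after a start) matched 58 of the 77 members, with 70 starts. A TOP-like stretch, a C on the sense strand within 10 bases of the start followed by at least 4 further pyrimidines, was found at 39 of 70 member starts (55.7%), against 29.7% of all 32851 promoters. CCGGAAG, the core bound by ETS factors, was found on either strand in 37.1% of member windows against 8.86% of all. AAGATGG, the core of the YY1 motif, was found in 15.7% against 6.34%, and the TATA box TATAAA in 7.14% against 13.6%. A match describes letters only. The windows below run from 30 bases before to 30 bases after the start, 5′ to 3′ on the sense strand. Only the first TOP-like stretch of each window is in capitals. In Rps27 a further run that meets the definition spans the start, and in Rps27l one follows the start, both in small letters. The windows allow comparison by eye of a paralog and its partner (Rps27l and Rps27), the muscle paralog Rpl3l and a typical TOP gene (Rps6). Members with high (Rpl19, Rps28) and low (Rps2) fold changes are included. Capitals begin no earlier than 10 bases before the start, so the pyrimidine runs of Rps27l and Rpl19 reach further upstream than marked. Rpl3, Rps20, Rplp1 and Rps29 were among the members not matched.
Rps6: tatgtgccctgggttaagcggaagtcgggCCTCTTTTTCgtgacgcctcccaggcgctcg
Rps27: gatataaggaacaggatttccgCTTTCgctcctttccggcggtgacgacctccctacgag
Rps27l: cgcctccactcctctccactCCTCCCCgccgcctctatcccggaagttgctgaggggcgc
Rpl3l: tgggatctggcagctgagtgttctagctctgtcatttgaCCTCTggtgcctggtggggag
Rpl19: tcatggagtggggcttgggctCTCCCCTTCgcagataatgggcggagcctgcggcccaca
Rps2: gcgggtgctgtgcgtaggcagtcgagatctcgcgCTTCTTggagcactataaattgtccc
Rps28: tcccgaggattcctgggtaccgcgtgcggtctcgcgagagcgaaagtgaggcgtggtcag

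On GRCm38.p6 these windows are chr4:86857338-86857397 (Rps6, minus strand), chr3:90213619-90213678 (Rps27, minus), chr9:66946056-66946115 (Rps27l, the first of 2 starts, plus), chr17:24727796-24727855 (Rpl3l, the first of 2 starts, plus), chr11:98026894-98026953 (Rpl19, the second of 2 starts, plus), chr17:24720033-24720092 (Rps2, plus) and chr17:33824533-33824592 (Rps28, minus). The stretch of Rps6 is 10 bases long and begins 1 base before the start. That of Rpl3l has 5 bases and lies 9 bases downstream. Rps28 has no such stretch in the searched bases. The second starts of Rps27l and Rpl3l, not shown, have none there either. The first start of Rpl19, not shown, has a stretch of 5 bases, against 9 marked at the start shown.

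Within each genotype the hearts differed, and more so among the wild types. Wild type 2 was below wild type 1 for 69 of 77 members, against 54.5% of all rows, with a median log2 difference of -0.39 against -0.07 over all rows. It was at least 1.5-fold lower for 15 members, against 14.2% of all rows, and at least 1.5-fold higher for 0, against 20.4%. Mutant 3 was above mutant 1 for 54 of 77 members, against 50.1% of all rows, with a median log2 difference of 0.10 against 0.00. With total-count scaling that median was -0.16, against -0.26 over all rows. Only Rpl39l was at least 1.5-fold lower in mutant 3, against 6.57% of all rows, and 0 members were at least 1.5-fold higher, against 5.18%. Without Rpl39l, the SD of the members' log2 differences was 0.29 between the wild types and 0.17 between the mutants. Each of these comparisons sets 1 library against 1 and has no replicate check.

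Named genes show how uneven the wild-type pair was. Rps2 was 1.86-fold, Rpl36 1.75-fold, Rps19 1.75-fold and Rpl28 1.69-fold lower in wild type 2 than in wild type 1. Rpl23 went the other way, with 22.5 CPM in wild type 1 and 32.0 CPM in wild type 2, a ratio of 1.43. Rps24 (ratio 1.35), Rpl30 (1.34) and Rpl5 (1.24) were also higher in wild type 2. Between the mutants the largest upward ratios were those of Rpl17 (1.39), Rpl41 (1.29), Rpl36a (1.28), Rpl26 (1.28) and Rps24 (1.27). Apart from Rpl39l, the strongest fall from mutant 1 to mutant 3 was that of Rps13, which was 1.28-fold lower.

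The differences between the wild types followed the base composition of the genes. Across the 77 members, the log2 difference between wild types 2 and 1 and the GC content of the coding sequence had a Spearman rho of -0.58 (-0.64 over the 76 without Rpl39l). The same measure over 13021 tested rows was -0.48. Between the mutants it was -0.17 over the 77 members and 0.01 over 13054 rows. All points of a comparison share the same 2 libraries, so these values only describe them. Rpl30, with 44.9% GC, Rpl5, with 46.0%, and Rps24, with 46.1%, were higher in wild type 2. Rpl36, with 61.6% GC, and Rps2, with 58.4%, were among the members that were lowest there. Other members departed from the trend. Rpl39, with 45.1% GC, was lower in wild type 2 (log2 difference -0.44), and Rps27a, with 45.9%, was nearly level (0.0030).

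**Figure D4:**
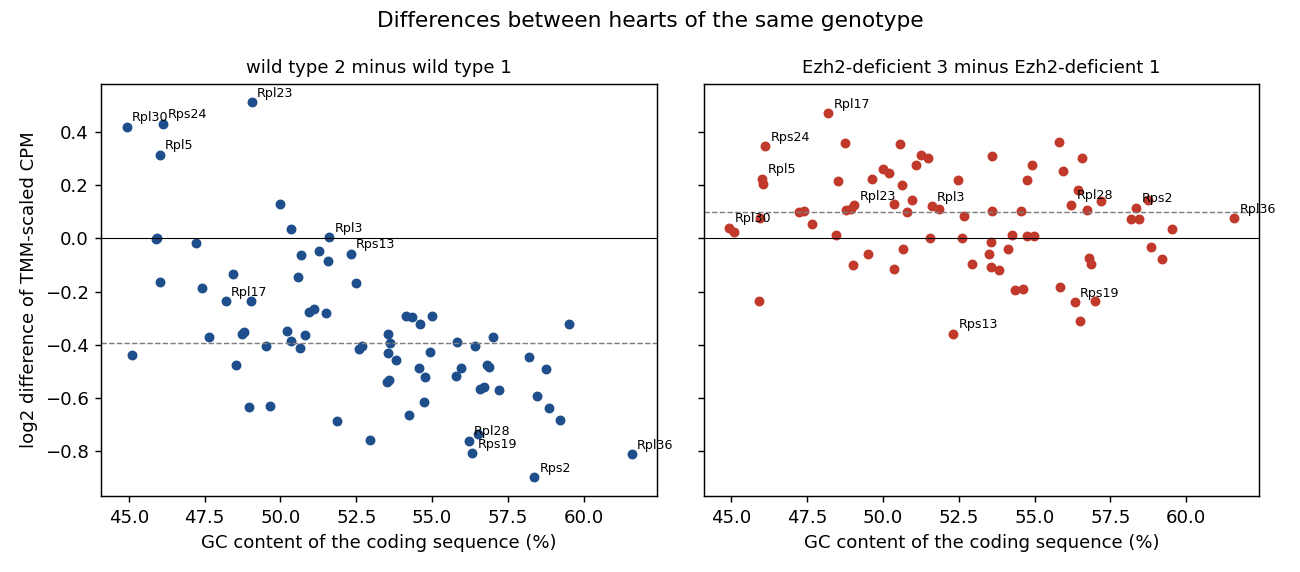
Log2 difference of TMM-scaled CPM between the 2 wild-type hearts (left) and the 2 Ezh2-deficient hearts (right) against the GC content of the coding sequence, for 76 members (Rpl39l, with few reads, is left out); dashed lines are medians. On the left the points descend with GC content around a median of -0.39; on the right they scatter around 0.10, a median that falls below 0 with total-count scaling.

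Short genes in general shared the direction of the members in the comparison of genotypes. Members with a coding sequence under 600 bases (56 genes) had a median log2 fold change of 0.39, and the 21 longer ones had 0.05. Over all tested rows with a known coding sequence, the 1607 short rows had a median of 0.26, with both mutants above both wild types in 45.8%, and the 11453 longer rows had -0.04, with 18.5%. Among the short members the mutants were above in 34 of 56, and among the longer members in 4 of 21. The correction that removed trends with GC content and coding length from each library left the members at a median of -0.06, beside -0.06 over all rows. Under that correction the log2 fold changes of Rpl3 (0.80), Rpl3l (-0.69), Rps2 (-0.66), Rpl8 (0.63) and Rpl19 (0.73) moved by less than 1.5 times. That of Rps27l was 0.42 in place of 0.95, that of Rps29 0.57 in place of 1.01 and that of Rps20 0.72 in place of 1.11. For Rpl36a it was 0.11 in place of 0.54, for Rpl30 0.0095 in place of 0.47, and for Rpl41 -0.056 in place of 0.47. With the correction edgeR called 0 members.

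Leaving out a wild-type heart changed the calls. Without wild type 1, edgeR called 32 members, all higher in the mutants, against 7.87% of all rows called higher and 4.33% called lower. Without wild type 2 it called 25 members, 19 higher and 6 lower, against 13.2% and 8.83% of all rows. The 6 lower genes were Rpl3l, Rps2, Rpl24, Rpl27, Rpsa and Rpl18, the last chosen after its value was seen. The log2 fold change of Rpl3l was -0.88 without wild type 2 and -0.47 without wild type 1. In total 16 of 77 members were called higher in both fits, against 3.16% of all rows, among them Rps20, Rps29, Rplp1, Rpl19, Rpl3 and Rps27l. The sign differed between the fits for 28 of 77 members, against 38.9% of all rows. In these fits the spread comes from the mutant pair alone, and 1 wild-type heart is assumed to vary like them. Without either mutant, 0 members were called.

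As a share of all reads, the members took 0.658% in mutant 1, 0.578% in mutant 3, 0.656% in wild type 1 and 0.482% in wild type 2. The groups overlapped (mean 0.618% ± 0.057 and 0.569% ± 0.123, SD, n = 2; exact two-sided permutation p = 0.667). Outside mitochondrial rows the shares were 1.10%, 1.10%, 1.00% and 0.819%, with both mutants above both wild types (exact permutation p = 0.333). The counting intervals of single libraries were narrow, such as 0.478% to 0.485% in wild type 2 (Clopper-Pearson, 95%). Those of mutant 1 and wild type 1 overlapped for all reads, and those of the mutants overlapped outside mitochondrial rows.

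Genes related to the ribosome were compared through 6 lists with 172 tested genes. Of these edgeR called 0 and DESeq2 1, against 0.13% and 1.18% of all rows. Mitochondrial ribosomal proteins, which build the separate ribosome of that organelle, had a median log2 fold change of 0.20 over 75 genes, of which 12 were higher (none lower) with an unadjusted p below 0.05, against 6.49% and 4.38% of all rows. That median was 0.0097 with the GC and length correction and 0.019 without wild type 2. With total-count scaling it was -0.084, where the median of all rows was -0.28. Both mutants were above both wild types in 30 of the 75, against 22.3% of all rows. Mrpl33 had 72.5 and 80.4 CPM in the mutants and 42.2 and 37.2 CPM in the wild types. Its log2 fold change was 0.94 ± 0.21 (SE, edgeR adjusted p 0.175). It lay apart between the groups, as did Mrps33, at 32.4 and 38.4 CPM against 19.7 and 18.6 CPM. The wild types differed in this list too, with a median of -0.44 and 66 of 75 genes lower in wild type 2, against 54.5% of all rows.

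The 5 ribosomal protein genes with other names had a median of 0.49, which was 0.20 with the GC and length correction and 0.27 without wild type 2. Rpl36al, the copy of Rpl36a, had 74.99 and 89.05 CPM in the mutants and 59.8 and 47.4 CPM in the wild types, with an edgeR adjusted p of 0.382. The Rpl29 row placed on chromosome 9, which is not among these 5, had 45.9 and 49.0 CPM against 40.3 and 28.7 CPM. Both mutants were above both wild types for Rpl36al and for this Rpl29 row. Among the 5 genes, both mutants were above both wild types for 3, against 22.3% of all rows. They were below for 1, against 22.4%, and the groups overlapped for 1.

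Other messages known for a TOP stretch (17 genes) had a median log2 fold change of 0.12, and 3 of them were higher (none lower) with an unadjusted p below 0.05, against 6.49% and 4.38% of all rows. Tpt1, a small growth-related protein, had 224.2 and 235.1 CPM in the mutants and 157.3 and 133.4 CPM in the wild types. Ribosome assembly factors (27 genes) had a median of 0.15 and initiation factors (28 genes) of 0.05. With the GC and length correction the medians of the TOP, assembly and initiation lists were 0.13, 0.082 and -0.041. Without wild type 2 they were 0.063, 0.016 and 0.068. Eif2s2, the beta subunit of the factor that delivers the initiator tRNA, had 74.9 and 68.9 CPM against 31.6 and 44.1 CPM, with a log2 fold change of 0.93 ± 0.24 (SE, edgeR adjusted p 0.239).

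For the mTORC1 and S6 kinase pathway (20 tested genes), which controls translation of TOP messages, the median log2 fold change was -0.09. Of the 20, 7 were above 0, against 50.5% of all rows. The median was -0.25 with the GC and length correction, beside -0.065 over all rows, and -0.24 without wild type 2. Both mutants were above both wild types for 3 of the 20, against 22.3% of all rows, and below for 5, against 22.4%. Rps6kb1, the kinase of Rps6, had 13.6 and 12.3 CPM in the mutants and 4.54 and 9.56 CPM in the wild types. Both mutants lay above both wild types, with wild type 1 far below wild type 2 (edgeR adjusted p 0.433).

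**Figure D5:**
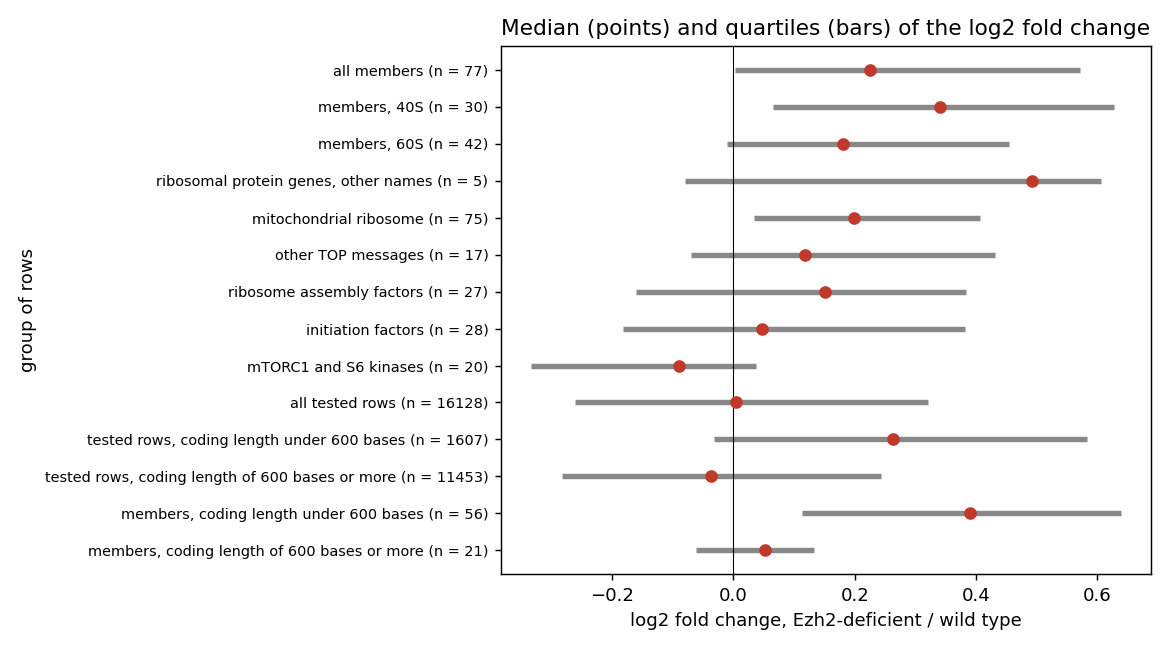
Median (point) and quartiles (bar) of the edgeR log2 fold change, Ezh2-deficient over wild type, for the members, the related lists, all tested rows, and rows split by a coding length of 600 bases. Members under 600 bases have a median of 0.39 and all short rows 0.26, while longer members have 0.05 and the mTORC1 list -0.09; total-count scaling lowers the median of all rows by 0.28.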

How the data were processed

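Per the labels' protocols, libraries were made from polyadenylated RNA and normalised with a duplex-specific nuclease. The submitters' processing notes name TopHat 1.2.0, Cufflinks and the build mm9. How reads were counted, with or without strand, and on which annotation was not given in the sources used here. Per the file headers, the deposited values are whole-number read counts per row and library and the authors' normalised value, which equals CPM and served only as a check of the counts. The authors' ratios and p-values per pair of libraries were not used.

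Counts of all 4 libraries were tested with edgeR 4.0.16 in R 4.3.3 (filterByExpr, 16128 rows kept; TMM scaling; quasi-likelihood test, no covariate; Benjamini-Hochberg adjustment over all rows; threshold 0.05, two-sided). Levels are TMM-scaled CPM, reads scaled to 1000000 per library after that correction of library size. Read ratios, shares and sums were computed per library (scipy 1.17.1, exact permutation tests). DESeq2 1.42.0, limma 3.58.1 (voom), other scalings and filters, and fits without each library were alternatives. A GC and length correction, and its rows without the correction, were added after the data were seen. Coding length and GC content came from GENCODE vM21 by gene symbol (81.0% of tested rows), and protein identity was computed from its translated coding sequences with Biopython 1.88.

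The members, the related lists and the marker lists were chosen with earlier results of these data known. Named members were a fixed set (Rpl3, Rpl3l, Rpl10, Rpl22, Rpl36a, Rpl39, Rpl39l, Rpl41, Rplp1, Rplp2, Rps4x, Rps6, Rps27, Rps27a, Rps27l, Rpsa), the 5 of the largest fold change and of the largest ratio within each genotype in each direction, and the 5 with the most and the fewest reads, 39 genes in all; each related list gave its 2 genes of smallest p. A gene that this rule names is not reported here. Rows outside this rule (Ezh2, Ddx3y, Xist, Eef1a1, Eef1a2, Rpl6, Rpl18, Rpl29, Rpl31, Rpl34, Rpl35, Wdr38) were named for the statements they appear in. Xist was found through its accession in the RefSeq gene table. The other marker lists (fibroblast, endothelial, macrophage and lymphocyte) had summed levels of 825.6 to 1051, 440.0 to 581.7, 59.0 to 74.1 and 1.51 to 6.64 CPM, overlapping between the genotypes.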

Additional observations from a re-analysis of the deposited data

How the results depend on the processing

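Fits without a wild-type heart, total-count scaling, and the GC and length correction moved results most; the cause was not tested. No paired analysis was possible because the groups share only 1 replicate number. With DESeq2 4 members were called and without the filter on low counts 3 (Rps20, Rps27l and Rps29), and 1 gene of the related lists under each. Without each library in turn, called members ranged from 0 to 32, called genes of the related lists from 0 to 49, the members' median log2 fold change from 0.082 (without wild type 2) to 0.34, and the difference in share of all reads (mutant minus wild type, percentage points) from -0.038 (without wild type 2) to 0.14. The log2 ratio of Rpl3l to Rpl3 kept its direction, from -1.73 to -1.32.

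The members' median log2 fold change was -0.057 with total-count scaling and -0.061 with the GC and length correction, where the median over all rows was -0.28 and -0.065. The median of mutant 3 against mutant 1 was -0.16 with total-count scaling, 0.11 without rows on X, Y and M and rows above 1% of a library, and 0.087 with the correction. That of wild type 2 against wild type 1 was -0.35 with RLE scaling, -0.42 with total-count scaling, -0.33 with upper-quartile scaling, -0.32 without X, Y, M and abundant rows, and -0.20 with the correction.

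In place of a log2 fold change above 0, 23 of 77 members had one below 0 with total-count scaling and 22 with the GC and length correction. Among the 39 named members these were 12 with total-count scaling, Rpl10 -0.17, Rpl17 -0.30, Rpl22 -0.023, Rpl26 -0.034, Rpl36 -0.14, Rpl5 -0.20, Rplp2 -0.22, Rps13 -0.057, Rps27 -0.19, Rps27a -0.064, Rps4x -0.18 and Rps6 -0.25, and 13 with the correction, Rpl10 -0.067, Rpl17 -0.30, Rpl22 -0.12, Rpl26 -0.048, Rpl36 -0.085, Rpl41 -0.056, Rpl5 -0.12, Rplp2 -0.23, Rps13 -0.065, Rps27 -0.35, Rps27a -0.16, Rps4x -0.11 and Rps6 -0.12. Rpl17, at 0.0023 as reported, was -0.0071 with DESeq2, -0.012 with limma-voom and -0.028 without X, Y, M and abundant rows. Without each library in turn, the sign changed at least once for 30 of 77 members, of which 15 were named, within these ranges: Rpl17 -0.21 to 0.26, Rpl27 -0.61 to 0.15, Rpl36 -0.20 to 0.61, Rpl39 -0.23 to 0.22, Rpl39l -0.30 to 2.16, Rpl5 -0.053 to 0.25, Rpl9 -0.52 to 0.12, Rplp2 -0.16 to 0.33, Rps14 -0.41 to 0.34, Rps19 -0.48 to 0.33, Rps27 -0.071 to 0.30, Rps3 -0.31 to 0.24, Rps4x -0.073 to 0.31, Rps6 -0.12 to 0.24 and Rpsa -0.52 to 0.047.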
